A study of Canis lupus familiaris with 29 samples.

Results

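The 10 genes described here are known for a part in glucocorticoid signaling and were read in the dog adrenal medulla and its tumors. They are the glucocorticoid receptor NR3C1, the mineralocorticoid receptor NR3C2, the cortisol-regenerating enzyme HSD11B1, the receptor cochaperone FKBP5, and 6 genes that glucocorticoids induce in many tissues, TSC22D3, PER1, DUSP1, ZBTB16, KLF9 and SGK1. They were chosen by name, and each name was found on 1 of the 30951 genes of the count table. The steroidogenic enzyme CYP17A1, a marker of the adrenal cortex, and the epinephrine-forming enzyme PNMT were read beside them in the same samples.

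RNA was sequenced from 29 samples of Canis lupus familiaris, 10 of normal adrenal medulla (NAM) and 19 of pheochromocytoma or paraganglioma (PPGL), the tumors of chromaffin cells inside and outside the adrenal gland. Research animals without disease, not put down for this work, gave the NAMs. The PPGLs, 18 pheochromocytomas and 1 paraganglioma, came from pet dogs at surgery or after euthanasia. The authors had set aside 2 further tumors as outliers and had placed 7 tumors in PPGL group 1 and 12 in PPGL group 2 by a principal component analysis of these samples, so p-values between the PPGL groups describe that split. The labels give no breed, age, sex, steroid treatment or hour of sampling, and research or clinic origin cannot be told apart from tissue.

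As background, cortisol from the cortex reaches the medulla in blood that drains inward, and in chromaffin cells the glucocorticoid receptor sustains PNMT, which turns norepinephrine into epinephrine. The unbound receptor waits in the cytoplasm on heat shock chaperones, and the bound receptor enters the nucleus and acts on target genes, among them FKBP5, whose protein in turn lowers the receptor's affinity for hormone. The mineralocorticoid receptor also binds cortisol, unless HSD11B2 inactivates that hormone, while HSD11B1 works in the other direction.

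Between 19258054 and 35918182 counts per sample fell on genes in NAMs, between 18493540 and 31919833 in group 1 and between 18208718 and 24569667 in group 2. Levels are counts scaled to 1e6 per library (CPM) and adjusted by the trimmed mean of M-values (TMM), and the smallest count behind any value of the 10 genes was 14. Counting limits of 3 counts lay between 0.0779 and 0.175 CPM over all samples and cover counting error only. A gene is called where edgeR's quasi-likelihood (QL) test over all genes gave an FDR-adjusted p below 0.05 against NAM, or below 0.1 between the PPGL groups, the study's thresholds for p. Changes are log2 fold changes (log2 FC) with their standard error (SE). Counts of called genes stand beside the shares over all genes tested by edgeR. In PPGLs against NAMs 22.3% were higher and 15.2% lower, and in group 1 against group 2 3.97% were higher and 2.95% lower.

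PPGLs are by name tumors of chromaffin cells, and 13 of the 14 chromaffin markers listed for the check were found by name. Their summed level was 16787 to 94188 CPM in NAMs, 9213 to 119914 CPM in group 1 and 20070 to 102536 CPM in group 2, with the granule protein CHGB as the most abundant. In PPGLs against NAMs, 4 of the 13 were higher, namely PHOX2A (log2 FC 2.17), HAND2 (1.41), CYB561 (1.15) and SYP (0.98), and PNMT was lower (-1.94), with a list median of 0.57 beside 0.13 over all genes tested. DESeq2 called 5 higher and 2 lower, the Mann-Whitney U-test 4 and 2, and edgeR without the 5 PPGLs described next 6 and 2. Between the PPGL groups, HAND2 alone was called by edgeR, higher in group 1 (1.02), while DESeq2 called 3 higher and the Mann-Whitney U-test 0, with 2 higher and 1 lower at an unadjusted p below 0.05, and the list median was 0.36 beside 0.04 over all genes.

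In 5 PPGLs TH, CHGB or the leukocyte markers were far from the NAM range. The catecholamine enzyme TH, never below 1057 CPM in NAMs, stood at 10.8 CPM in group 1 replicate 3, at 2.15 CPM in group 1 replicate 5 and at 32.3 CPM in group 2 replicate 7. Replicates 3 and 5 of group 1 also had DDC at 0.285 and 0.358 CPM, so these chromaffin markers were nearly absent. CHGB was 27.1 CPM in group 1 replicate 7, while no NAM was below 5687.5 CPM. Group 2 replicate 11 had a summed leukocyte marker level of 831 CPM, where no NAM exceeded 216 CPM, and a summed fibroblast and mural level of 28576 CPM, where no NAM exceeded 1878 CPM. All 5 still had the norepinephrine enzyme DBH at 2166 CPM or more. The limits that set these 5 apart, a TH or CHGB level more than 16-fold under the lowest NAM or leukocyte markers over 3-fold above the highest, were chosen after the data were seen. They were applied to TH, CHGB and the leukocyte markers alone, and other chromaffin markers of the list were also more than 16-fold under the lowest NAM in replicates 1 and 2 of group 1 and replicates 1, 8, 9 and 12 of group 2, which were kept. Most tests of the 10 genes are given below with and without the 5. So are the list counts that differed in PPGLs against NAMs or between the PPGL groups. The levels, the receptor ratio and the correlations are given with all tumors.

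Cortical tissue was read next, since cortical cells make the glucocorticoid and lie beside the medulla. The summed level of the 10 cortical markers found was 12669 to 62090 CPM in NAMs, 23.5 to 1139 CPM in group 1 and 202 to 31169 CPM in group 2. Of these markers 9 were lower in PPGLs (list median log2 FC -3.22), among them the ACTH receptor partner MRAP (-3.63), INHA (-3.55) and CYP11A1 (-3.43), and 9 were lower in group 1 than in group 2 (median -6.63, and 8 without the 5 PPGLs that stand apart), with CYP11A1 at -6.96, the ACTH receptor MC2R at -6.92 and CYP21A2 at -6.80. MC2R had no count in 4 of the 7 tumors of group 1. CYP17A1, the most abundant (ENSCAFG00000010279, minus strand of chromosome 28, 15293106 to 15298852 in CanFam3.1), ranged from 3054 to 20359 CPM in NAMs with a median of 12299 CPM. It ran from 0.0336 to 104 CPM with a median of 1.88 CPM in group 1 and from 10.3 to 11730.5 CPM with a median of 1155 CPM in group 2. All 7 tumors of group 1 and 9 of 12 in group 2 were below every NAM. In bulk tissue, fewer cells of a type and less RNA per cell cannot be told apart. The mean log2 level of the cortical markers, 8.06 to 10.26 in NAMs and -1.34 to 2.93 in group 1, did not overlap, so cortical content and group cannot be told apart there, and its part in the results below was not tested beyond a fit that holds it as a covariate.

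PNMT (ENSCAFG00000016368, minus strand of chromosome 9, 22808601 to 22810551) ranged from 1602 to 4767 CPM in NAMs with a median of 2341 CPM. It ranged from 11.6 to 5827 CPM in group 1, median 509 CPM, and from 62.5 to 889.9 CPM in group 2, median 169 CPM. Every tumor but group 1 replicate 2 was below every NAM. Against NAM the log2 FC was -2.99 in group 2 (SE 0.69, edgeR QL adjusted p = 0.00164) and -1.03 in group 1 (SE 0.78, adjusted p = 0.318), and group 1 against group 2 was 1.96 (SE 0.85, adjusted p = 0.211 by edgeR). The values of group 1 depended on its replicate 2, at 5827 CPM, as the next highest was 1533 CPM. Without that tumor group 1 was called lower than NAMs (-2.38, edgeR adjusted p = 0.0184), and the difference between the PPGL groups was 0.61 (adjusted p = 0.720). When the 5 PPGLs that stand apart were left out, group 1 was at -0.24 against NAMs and group 2 at -2.80, and the difference of 2.56 was called (edgeR adjusted p = 0.0846, over 11 settings 0.0765 to 0.971). With the cortical marker level held in the fit, group 1 turned to 1.58 against NAMs (adjusted p = 0.794, over 10 settings 0.0815 to 0.794) and group 2 was at -2.07 and no longer called (adjusted p = 0.202, over 10 settings 1.02e-05 to 0.202).

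Per kilobase of exon, the 10 genes spanned a wide range of levels in NAMs. The median was highest for DUSP1 at 135 CPM per kb, TSC22D3 at 119.8 and FKBP5 at 97.0, and then SGK1 at 76.1, PER1 at 44.1 and ZBTB16 at 22.1 CPM per kb. NR3C1 followed at 17.8, KLF9 at 16.4, NR3C2 at 4.35 and HSD11B1 at 3.15 CPM per kb. Neighbors in this order overlapped in their ranges over the 10 NAMs, except that every NAM had more KLF9 than NR3C2 per kb. The exon model of KLF9 is only 671 bases long, and reads on any exon it lacks would not be counted.

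**Figure D1:**
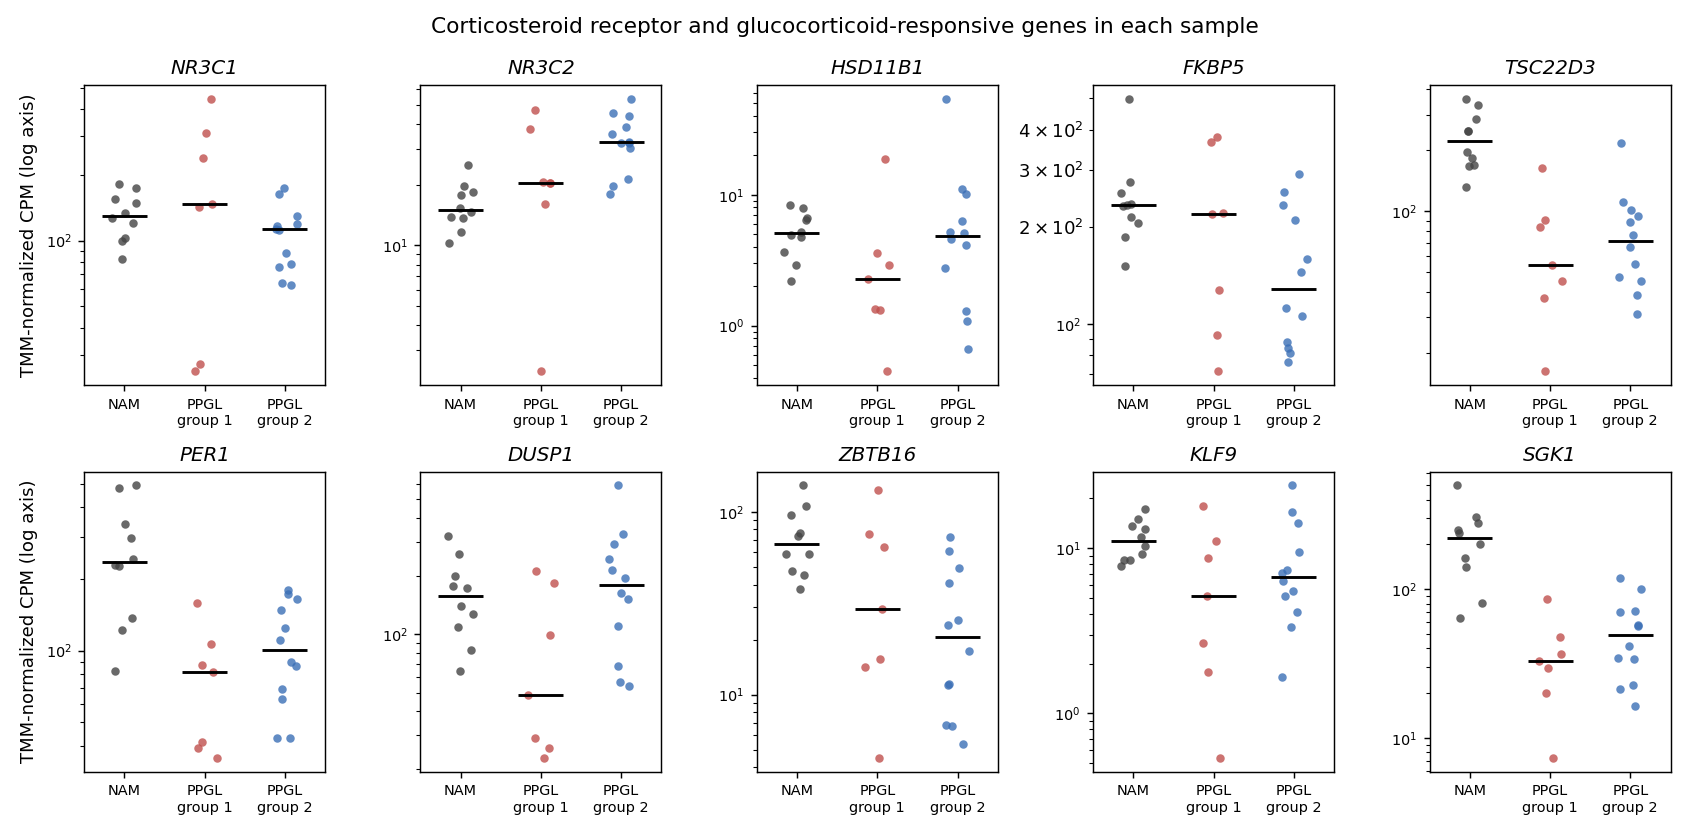
TMM-normalized CPM (log axis) of the 10 genes in each of the 29 samples, with 1 point per sample and a line at each group's median. SGK1 lies between 64.1 and 498 CPM in NAMs and between 7.32 and 119 CPM in PPGLs, and NR3C2 lies above its NAM median in 18 of 19 PPGLs.

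NR3C1 (ENSCAFG00000006293, minus strand of chromosome 2, 38123190 to 38240755), the receptor through which cortisol acts in most cells, had 81.9 CPM in its lowest NAM, a median of 129.6 CPM and 180.4 CPM in its highest. In group 1 the lowest, median and highest levels were 25.2, 146 and 445 CPM, and in group 2 they were 62.9, 112 and 174 CPM. Group 1 thus held the extremes: replicates 7 and 3, at 25.2 and 27.3 CPM, lay below all other samples, and replicates 1, 2 and 6, at 445, 309 and 237 CPM, above all others. Group 2 overlapped the NAMs, with 4 of 12 tumors below every NAM, 9 below the NAM median and 0 above every NAM. Its log2 FC against NAMs was -0.29 (SE 0.32, edgeR QL adjusted p = 0.506). NR3C1 was not called in any comparison (log2 FC 0.07, SE 0.32, adjusted p = 0.885 in PPGLs against NAMs, and 0.84, SE 0.41, adjusted p = 0.273 in group 1 against group 2). The PPGL value was -0.12 without group 1 replicate 1 and 0.13 without group 1 replicate 7, and group 1 against group 2 was 0.46 and 1.04 in these fits. Against NAMs, group 1 was at 0.52 with all tumors (SE 0.37, edgeR adjusted p = 0.281), at 0.16 without its replicate 1 and at 0.74 without its replicate 7. Without the 5 PPGLs that stand apart, which leaves 4 tumors of group 1 and 10 of group 2, NR3C1 was called higher in group 1 than in NAMs (1.10, edgeR adjusted p = 0.00326) and than in group 2 (1.43, adjusted p = 0.0434). Over the 11 other settings between the PPGL groups, that adjusted p ran from 0.0434 to 0.925, and over 10 settings against NAMs from 0.00326 to 0.915.

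NR3C2 (ENSCAFG00000007813, minus strand of chromosome 15, 46390023 to 46710131), which binds aldosterone and cortisol, was the only gene of the 10 called higher in PPGLs. Its lowest, median and highest levels were 10.2, 14.99 and 25.2 CPM in NAMs, 2.35, 20.4 and 47.0 CPM in group 1 and 17.97, 32.4 and 53.6 CPM in group 2. All 12 tumors of group 2 were above the NAM median and 9 above every NAM, while in group 1 replicates 1 and 5 were above every NAM and replicate 7, at 2.35 CPM, was far below all. The log2 FC was 0.90 in PPGLs against NAMs (SE 0.27, 95% interval 0.34 to 1.46, adjusted p = 0.0105, 18 of 19 above the NAM median) and 0.92 without the 5 PPGLs that stand apart (adjusted p = 0.00101). It was 1.07 in group 2 (SE 0.29, adjusted p = 0.00529), 1.03 without the tumors that stand apart (adjusted p = 0.000615), and 0.55 in group 1 (SE 0.32, adjusted p = 0.190). The group 1 value depended on single tumors: without replicate 7 it was 0.77 and called (edgeR adjusted p = 0.0182), without replicate 5 it was 0.28 (adjusted p = 0.528), and with the cortical marker level held in the fit it turned to -0.70 (adjusted p = 0.796, over 10 settings 0.112 to 0.796). Group 1 against group 2 was -0.50 with all tumors (SE 0.37, edgeR adjusted p = 0.478). It was -0.29 without group 1 replicate 7 and -0.77 without group 1 replicate 5. The PPGL call was lost when the cortical marker level was held in the fit (1.02, edgeR adjusted p = 0.0621). It was also lost with a replicate block (0.77, edgeR adjusted p = 0.0566), within a range of 0.00101 to 0.0621 over 11 settings. The block treats samples of the same number as paired, here and below, although the numbers count different dogs. With the cortical level held the group 2 value was 0.60 (edgeR adjusted p = 0.366, the highest of 10 settings, of which the lowest was 0.000161).

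Set against each other per kilobase, both receptors gave a ratio of NR3C1 to NR3C2 that separated group 2 from the NAMs. The ratio was 3.40 to 5.34 in NAMs with a median of 3.91, 0.843 to 2.59 in group 2 with a median of 1.63, and 0.636 to 9.19 in group 1 with a median of 5.10. Every tumor of group 2 was below every NAM. In group 1 only replicates 3 and 5, at 0.636 and 1.44, were as low as group 2, and both are among the tumors that stand apart, while the other 5 ran from 3.37 to 9.19. The ratio was formed after the levels had been seen and was not tested.

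HSD11B1 (ENSCAFG00000011925, plus strand of chromosome 7, 8344447 to 8409897) regenerates cortisol from cortisone inside cells. It was the least abundant of the 10 genes, with a lowest, median and highest level of 2.21, 5.07 and 8.35 CPM in NAMs, 0.447, 2.28 and 18.9 CPM in group 1 and 0.664, 4.86 and 54.3 CPM in group 2. The tumors ranged on both sides of the NAMs, with group 2 replicate 11 highest at 54.3 CPM and group 1 replicate 1 next at 18.9 CPM. HSD11B1 was not called (PPGLs against NAMs 0.45, SE 0.57, adjusted p = 0.569), and the value was -0.20 without group 2 replicate 11 and 0.01 without all 5 PPGLs that stand apart. In DESeq2, which replaced the count of 1 library, it was -0.22.

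The genes listed beside HSD11B1 for steroid access and metabolism were lower or not called in PPGLs. Of 5 tested out of 7 found, 3 were lower, with a list median of -1.33 beside 0.13 over all genes. The cortisol-inactivating enzyme HSD11B2, a marker of mineralocorticoid target cells, had a median of 856 CPM in NAMs, 4.50 CPM in group 1 and 130.1 CPM in group 2, with a log2 FC of -2.98 in PPGLs (SE 0.80) and -5.69 in group 1 against group 2 (SE 1.01). H6PD, which supplies the cofactor for HSD11B1, was at -1.56 (SE 0.24), and the steroid-exporting pump ABCB1, the most abundant of the list, at -1.33 (SE 0.35). The steroid reductase SRD5A1 was higher in group 1 than in group 2 (0.82, SE 0.27). Without the 5 PPGLs that stand apart edgeR called 0 of the list higher there, with 1 at an unadjusted p below 0.05, as did the Mann-Whitney U-test with all tumors, while DESeq2 called 1. The cortical markers moved in the same direction in these samples, and their part in the HSD11B2 values was not tested.

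FKBP5 (ENSCAFG00000001343, minus strand of chromosome 12, 4727497 to 4833323) had 151 CPM in its lowest NAM, a median of 233 CPM and 499 CPM in its highest. The lowest, median and highest levels were 71.4, 219.9 and 379.6 CPM in group 1 and 76.3, 128 and 292 CPM in group 2. In group 2, 7 of 12 tumors were below every NAM and none was above the highest. FKBP5 was not called in PPGLs against NAMs (-0.51, SE 0.26, adjusted p = 0.127), in group 1 against NAMs (-0.24, SE 0.33, but 0.0565 without the 5 PPGLs that stand apart and -0.0715 without NAM replicate 3) or in group 2 against NAMs (-0.70, SE 0.29, edgeR adjusted p = 0.0590). The PPGL value ran from -0.90 to -0.42 over 11 other settings, called in none. The group 2 value came under the threshold without the PPGLs that stand apart (-0.76, adjusted p = 0.0333) and in 6 fits that each left out 1 library. These were the fits without NAM replicate 5 (-0.76), group 1 replicates 4 (-0.70) or 7 (-0.70), or group 2 replicates 8 (-0.78), 11 (-0.82) or 12 (-0.79), and their adjusted p was 0.0256 to 0.0496. It was also called by DESeq2 (-0.71), with the immediate early level held in the fit (-0.91), with a replicate block (-0.99) and with group 2 and NAMs alone in the fit (-0.69), with adjusted p from 0.0160 to 0.268 over 10 settings.

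Around the receptor, 14 of 16 listed chaperones and coregulators were found and tested. In PPGLs HSP90AA1, a chaperone of the unbound receptor and the most abundant of the list, was higher (0.74, SE 0.23), and 4 were lower, among them the chaperone HSPA8 (-0.84), the corepressor NCOR1 (-0.68) and the coactivator NCOA1 (-0.57). Over all genes tested 22.3% were higher and 15.2% lower, and the list median was -0.14 beside 0.13 over all genes. Between the PPGL groups the coactivator NCOA3 was higher in group 1 (0.66), with a median of 0.17 beside 0.04; DESeq2 called 1 too, and the Mann-Whitney U-test 0, with 2 at an unadjusted p below 0.05.

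SGK1, TSC22D3 and PER1 were lower in the tumors than in NAMs in both PPGL groups, which share the NAMs as controls. SGK1 (ENSCAFG00000000217, minus strand of chromosome 1, 27087361 to 27196521), a kinase that both steroid receptors induce, had a lowest, median and highest level of 64.1, 220.5 and 498 CPM in NAMs, 7.32, 32.7 and 85.2 CPM in group 1 and 16.3, 49.0 and 119 CPM in group 2. All 19 PPGLs were below the NAM median and 14 below every NAM, and the 5 in the NAM range were 1 tumor of group 1 and 4 of group 2. The log2 FC was -2.22 in PPGLs (SE 0.33, 95% interval -2.90 to -1.55, adjusted p = 1.08e-05), -2.59 in group 1 (SE 0.47, adjusted p = 0.000110) and -2.05 in group 2 (SE 0.38, adjusted p = 0.000188). Without the 5 PPGLs that stand apart these were -2.12, -2.37 and -2.05.

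TSC22D3 (ENSCAFG00000029920, minus strand of chromosome X, 81235809 to 81298192) encodes GILZ, a leucine zipper protein that mediates anti-inflammatory actions of glucocorticoids. Its lowest, median and highest levels were 131, 223 and 359.9 CPM in NAMs, 16.2, 54.3 and 163 CPM in group 1 and 31.0, 71.3 and 217 CPM in group 2. Of the 19 PPGLs 17 were below every NAM, and only group 1 replicate 2 and group 2 replicate 11 reached the NAM range. The log2 FC was -1.60 in PPGLs (SE 0.28, adjusted p = 6.66e-05), -1.74 in group 1 (SE 0.38, adjusted p = 0.000855) and -1.53 in group 2 (SE 0.32, adjusted p = 0.000634). Without the 5 PPGLs that stand apart these were -1.59, -1.26 and -1.76.

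PER1 (ENSCAFG00000016984, minus strand of chromosome 5, 32957127 to 32968465), a circadian clock repressor with a known glucocorticoid response, varied widely among the NAMs, with a lowest, median and highest level of 81.8, 236 and 494 CPM. The same levels were 35.4, 81.5 and 159 CPM in group 1 and 43.0, 101 and 179 CPM in group 2. All 19 PPGLs were below the NAM median, but only 8 below every NAM, so the ranges overlapped. The log2 FC was -1.45 in PPGLs (SE 0.28, adjusted p = 0.000251), -1.76 in group 1 (SE 0.39, adjusted p = 0.000845) and -1.30 in group 2 (SE 0.32, adjusted p = 0.00252). Without the 5 PPGLs that stand apart these were -1.38, -1.62 and -1.31. When the cortical marker level was held in the fit, the PPGL value was -1.05 and no longer called (adjusted p = 0.0840, the highest of 11 settings, of which the lowest was 1.59e-07).

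Under that same covariate, SGK1 and TSC22D3 remained called in PPGLs (-1.78 and -1.32). In group 1 it ended the calls of SGK1 (-1.87, edgeR adjusted p = 0.514), TSC22D3 (-1.13, 0.666) and PER1 (-1.15, 0.702), and in group 2 those of TSC22D3 (-1.27, 0.118) and PER1 (-1.08, 0.176), while SGK1 was called in group 2 (-1.80, 0.0375). Each of these was the highest adjusted p of 10 settings, of which the lowest were 2.17e-08, 1.60e-05 and 1.56e-05 in group 1 for SGK1, TSC22D3 and PER1, and 4.81e-07, 1.59e-05 and 3.23e-06 in group 2. In group 1 against NAMs this covariate left 15 genes called of 15201, where the fit without it called 5331, and in group 2 against NAMs 1098, against 5005 without it.

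ZBTB16 (ENSCAFG00000013538, minus strand of chromosome 5, 19087154 to 19267628), a zinc finger repressor strongly induced by glucocorticoids in many cell types, had a lowest, median and highest level of 37.9, 66.3 and 139 CPM in NAMs, 4.50, 29.6 and 131 CPM in group 1 and 5.36, 20.6 and 72.9 CPM in group 2. Of the 19 PPGLs 12 were below every NAM, 8 of them in group 2, and 3 were above the NAM median. The log2 FC was -1.08 in PPGLs (SE 0.43, adjusted p = 0.0464), -1.07 without the 5 that stand apart (adjusted p = 0.0409), -1.43 in group 2 (SE 0.47, adjusted p = 0.0206) and -0.64 in group 1 (SE 0.55, adjusted p = 0.388). The difference between the PPGL groups was not called (0.81, SE 0.59, adjusted p = 0.482 by edgeR), and its size was not stable. It was 1.24 without the tumors that stand apart, 0.32 without group 1 replicate 2 and -0.0268 with the cortical marker level held in the fit. Against NAMs group 2 was at -1.56 and group 1 at -0.32 without the tumors that stand apart, and group 1 was at -1.10 without its replicate 2. The PPGL call ended when any 1 of 20 libraries was left out, with log2 FC from -1.11 to -0.93 and adjusted p from 0.0513 to 0.0990: NAM replicates 2, 3, 4, 7, 8, 9 and 10, group 1 replicates 3, 4, 6 and 7, and group 2 replicates 1, 2 and 4 to 10. It also ended with library size as the scale (-1.005, adjusted p = 0.0622) and with all 3 groups in the fit (-1.03, adjusted p = 0.0536), in a range of 0.00975 to 0.0622 over 11 settings. The value was larger, and called, with a replicate block (-1.74) and with the cortical marker level held in the fit (-1.94). The group 2 call held in each fit that left out 1 library (-1.66 to -1.28) and ended with the cortical covariate (-1.96, adjusted p = 0.106, over 10 settings 0.00382 to 0.106).

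KLF9 (ENSCAFG00000001867, plus strand of chromosome 1, 87109450 to 87111525), a Krüppel-like repressor under glucocorticoid control, was at 7.79, 11.0 and 17.3 CPM in the lowest, median and highest NAM, at 0.537, 5.14 and 17.96 CPM in group 1 and at 1.66, 6.71 and 23.9 CPM in group 2. Of the 19 PPGLs 12 were below every NAM, yet 2, group 1 replicate 1 and group 2 replicate 11, were above every NAM. It was not called in PPGLs (-0.52, SE 0.38, adjusted p = 0.290), and the value without the 5 PPGLs that stand apart was -0.53.

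DUSP1 (ENSCAFG00000029826, plus strand of chromosome 4, 39588339 to 39590514) encodes a phosphatase that switches off MAP kinases and is induced by glucocorticoids and by growth factor and stress signals alike. Its lowest, median and highest levels were 64.7, 157 and 322 CPM in NAMs, 22.9, 48.7 and 212 CPM in group 1 and 54.0, 180.5 and 592 CPM in group 2. In group 1, 4 of 7 tumors were below every tumor of group 2 and every NAM. In group 2, 2 tumors were above every NAM and 2, replicates 5 and 12 at 56.9 and 54.0 CPM, below every NAM. DUSP1 was not called in PPGLs against NAMs (-0.03, SE 0.41, adjusted p = 0.967), where library size as the scale gave 0.07 and omission of the 5 PPGLs that stand apart -0.19, nor in group 1 against group 2 (-1.21, SE 0.54, unadjusted p = 0.0348, adjusted p = 0.221 by edgeR). Without group 1 replicate 2 it was called lower in group 1 against NAMs (-1.28, adjusted p = 0.0471, against -0.91 and 0.153 with it). Over 11 other settings the log2 FC of DUSP1 in group 1 against group 2 ran from -1.75 to -0.30, called in none.

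Because DUSP1 and PER1 also respond within minutes to handling and signaling, the 14 immediate early genes listed were read beside them. Their summed level was 184 to 3857 CPM in NAMs, 66.1 to 2417 CPM in group 1 and 348 to 5043 CPM in group 2, with NR4A1 the most abundant. In PPGLs 6 were higher, led by FOS (3.57), EGR2 (2.65) and EGR3 (2.495), and NR4A1 was lower (-1.87), with a median of 0.88 beside 0.13 over all genes. DESeq2 called 6 higher and 1 lower, the Mann-Whitney U-test 2 and 1, and edgeR without the 5 PPGLs that stand apart 5 and 1. In group 1 against group 2 ATF3 (-2.51) and BTG2 (-2.34) were lower, with a median of -1.48 beside 0.04. There DESeq2 called 5 lower, the Mann-Whitney U-test 0, with 3 at an unadjusted p below 0.05, and edgeR without the 5 PPGLs 0, with 4 at that p. With the mean log2 level of these genes as a covariate, DUSP1 was called lower in PPGLs (-0.86, adjusted p = 0.00206, over 11 settings 0.00206 to 0.976) and in group 1 against NAMs (-1.06, edgeR adjusted p = 0.00310, over 10 settings 0.00310 to 0.727). KLF9 was called lower in PPGLs (-0.93, adjusted p = 0.0483, over 11 settings 0.0483 to 0.681). By the authors' methods the NAMs were snap-frozen, while tumors were snap-frozen or put in RNAlater before cold storage. Which tumors had RNAlater and the time to freezing are not in the labels, and the part of either was not tested.

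**Figure D2:**
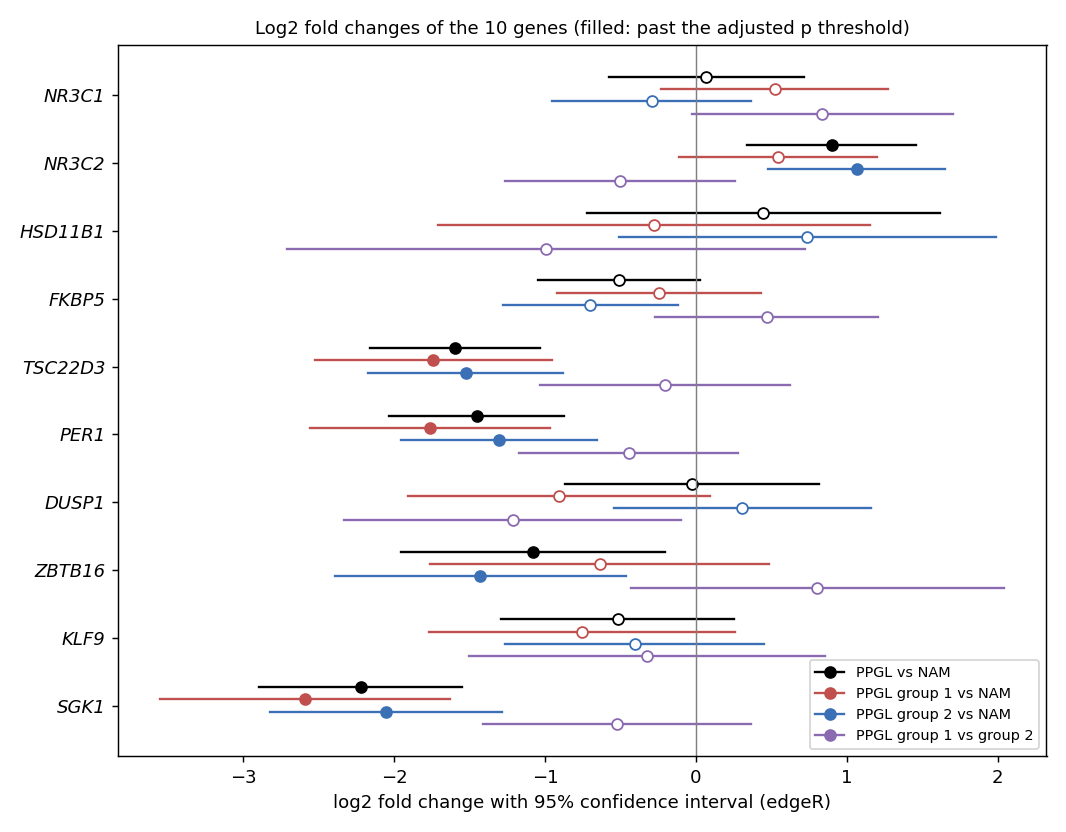
Log2 FC of the 10 genes by edgeR's QL test in PPGLs against NAMs, group 1 against NAMs, group 2 against NAMs and group 1 against group 2, with bars for the 95% interval and filled points for called genes. SGK1 lies at -2.22, TSC22D3 at -1.60 and PER1 at -1.45 in PPGLs against NAMs, and no gene is called between the PPGL groups.

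Counted together, 1 of the 10 genes was called higher in PPGLs than in NAMs, where 22.3% of the 14766 genes tested were higher, and 4 of 10 were called lower, where 15.2% were. Their median log2 FC was -0.51 beside 0.13 over all genes, and none passed the study's limit of 3 on the log2 scale. In group 1 against NAMs 3 of 10 were lower, beside 14.1% of 15201 genes, and 0 of 10 higher, beside 21.0%; by edgeR 3 had an unadjusted p below 0.05, and DESeq2 called 3, with 4 at that unadjusted p. In group 2 against NAMs 1 of 10 was higher, beside 18.4%, and 4 were lower, beside 14.5%. The medians of the 10 were -0.70 in group 1 and -0.55 in group 2, beside 0.13 and 0.09 over all genes, and both sets of values rest on the same NAMs.

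Between the PPGL groups 0 of 10 were called, beside 3.97% of 14666 genes called higher and 2.95% called lower in group 1. At an unadjusted p below 0.05 edgeR gave 1 of 10, DUSP1, DESeq2's Wald test called 0 and gave 2, and the exact Mann-Whitney U-test called 0 and gave 1. With 7 and 12 tumors, the SE of the 10 was 0.35 to 0.82. Without the 5 PPGLs that stand apart, 1 of 10 was called, NR3C1, as given above, beside 384 of the 14988 genes tested in that fit.

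Samples differed in how many of the 10 genes were extreme in them. Group 1 replicate 7 was below every NAM in all 10 genes, where 33.7% of the 14766 genes were, and the lowest of all 29 samples in 6, where 13.4% were. Both shares over all genes, and its TMM factor of 1.21, were the highest of any sample. Replicates 4 and 6 of group 1 were below every NAM in 7 each, beside 29.1% and 31.6% of all genes. Group 2 replicate 11 was below every NAM in 0 of 10, beside 27.4%, above every NAM in 4, beside 27.1%, and the highest PPGL in 5, beside 10.1%. These counts are a description and were not tested.

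Other genes that glucocorticoids induce were called in both directions, in numbers that varied with the test and the tumors used. By edgeR with all tumors both counts were smaller shares than over all genes, of which 22.3% were higher and 15.2% lower. Of 33 tested out of 34 found, edgeR called 4 higher in PPGLs, the decoy receptor IL1R2 (2.07), the G protein regulator RGS2 (1.95), GADD45B (1.95) and LCN2 (1.42), and 4 lower, the small G protein RASD1 (-2.85), the pyruvate dehydrogenase kinase PDK4 (-2.07), CEBPB (-1.28) and PER2 (-1.08). DESeq2 called 3 higher and 6 lower, the Mann-Whitney U-test 2 and 8, and edgeR without the 5 PPGLs that stand apart 3 and 10. By group, edgeR called 6 higher and 4 lower in group 2 against NAMs, where DESeq2 called 6 and 7, and edgeR without the 5 PPGLs 4 and 8. In group 1 against NAMs edgeR called 5 lower and 0 higher, with 2 higher at an unadjusted p below 0.05. There DESeq2 called 1 higher and 8 lower, and edgeR without the 5 PPGLs 0 and 7. Over all genes 18.4% were higher and 14.5% lower in group 2, and 21.0% higher and 14.1% lower in group 1. In PPGLs the list median was -0.07 beside 0.13 over all genes, and the most abundant gene, TXNIP, was not called. RASD1 had a median of 167 CPM in NAMs, 1.74 CPM in group 1 and 38.5 CPM in group 2. In group 1 against group 2 edgeR called 6 lower, beside 2.95% of all genes. The metallothionein MT2A was at -3.06, RASD1 at -2.92 and TNFAIP3 at -2.64, and the list median was -0.42 beside 0.04. There DESeq2 called 2 higher and 10 lower, the Mann-Whitney U-test 2 lower, and edgeR without the 5 PPGLs 1 higher and 1 lower.

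Sodium transport genes under mineralocorticoid control were read for NR3C2. Of 5 tested out of 8 found, the sodium pump subunit ATP1B1 was higher in PPGLs (1.51, SE 0.35), with medians of 299 CPM in NAMs, 688 CPM in group 1 and 1204 CPM in group 2. That was 1 of 5 called higher, beside 22.3% of all genes tested, and the list median was 0.44 beside 0.13 over all genes. The epithelial sodium channel subunits SCNN1B and SCNN1G had medians of 0.1999 and 0.0965 CPM in NAMs, near the counting limit. Between the PPGL groups edgeR called 0 of 5, with 1 at an unadjusted p below 0.05, DESeq2 called 0 and the Mann-Whitney U-test 0, and the list median was -0.13 beside 0.04.

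Among 14 circadian clock genes, PER1 not included, the core activator ARNTL was lower in PPGLs (-2.37, SE 0.33), as were CIART (-1.09) and PER2, and the repressor BHLHE40 was higher (1.40). ARNTL had a median of 62.2 CPM in NAMs, 12.8 CPM in group 1 and 14.3 CPM in group 2. DESeq2 also called 1 higher and 3 lower, the Mann-Whitney U-test 4 lower and 0 higher, with 1 higher at an unadjusted p below 0.05, and edgeR without the 5 PPGLs that stand apart 2 higher and 3 lower. By edgeR with all tumors 1 of 14 was higher and 3 were lower, beside 22.3% and 15.2% of all genes tested. The most abundant of the list, DBP, was not called, and the list median was 0.05 beside 0.13 over all genes. Between the PPGL groups edgeR called 0 of 14, with 1 at an unadjusted p below 0.05, DESeq2 called 1 and the Mann-Whitney U-test 0, and the list median was 0.13 beside 0.04. Hour of sampling is not in the labels, so its part was not tested.

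Markers of other cells in the tissue differed too, and their part in the results above was not tested. Fibroblast and mural markers were higher in PPGLs for 6 of 8, led by COL1A1 (3.72), COL3A1 (3.09) and LUM (2.43), with a median of 1.71, and RGS5, the most abundant, was at 1.14. DESeq2 called 4 of the 8 higher, the Mann-Whitney U-test 3, and edgeR without the 5 PPGLs that stand apart 4. Endothelial markers were lower for 3 of 6, TEK (-1.14), KDR (-1.09) and VWF (-0.73), with PECAM1 the most abundant and a median of -0.45. Of 7 leukocyte markers tested, CD4 (2.88) and CD3E (1.93) were higher and CSF1R (-0.72), the most abundant, lower, with a median of 0.51. DESeq2 called 2 of these higher and 2 lower, as did edgeR without the 5 PPGLs, while the Mann-Whitney U-test called 2 lower and 0 higher, with 1 higher at an unadjusted p below 0.05. The adipocyte marker LPL was lower (-1.47, 1 of 4 tested, median 0.58), where DESeq2, and edgeR without the 5 PPGLs, also called 1 higher, and of 3 Schwann and sustentacular markers tested edgeR called 0 with 1 at an unadjusted p below 0.05, DESeq2 called 1 lower and the Mann-Whitney U-test 3 lower (median -1.15). Erythroid genes were higher for 3 of 3 tested, HBM, ALAS2 (4.79) and AHSP (2.51), although their summed level was no more than 0.839 CPM in NAMs, 28.6 CPM in group 1 and 65.0 CPM in group 2. DESeq2 called 3 of them, the Mann-Whitney U-test 2, and edgeR without the 5 PPGLs 1 of 1 tested. In the hepatocyte list APOA1 was lower (-1.26) and SERPINA1 higher (2.63), where edgeR without the 5 PPGLs and the Mann-Whitney U-test called 0 higher, with 1 at an unadjusted p below 0.05, and DESeq2 called 1, while the defining markers TTR, FGA and AHSG had medians of 0 CPM in every group, and of the kidney tubule list UMOD had no count in any sample and LRP2 was the 1 gene tested (-0.40, unadjusted p above 0.05 and not called by edgeR, DESeq2 or the Mann-Whitney U-test). Between the PPGL groups, the erythroid gene ALAS2 was lower in group 1 (-3.44). DESeq2 and the Mann-Whitney U-test called 1 erythroid gene lower there, and edgeR without the 5 PPGLs 0, with 1 at an unadjusted p below 0.05. With all tumors edgeR called 0 of 8 fibroblast and mural markers (median -1.92, 5 at an unadjusted p below 0.05, 1 called by DESeq2) and 0 of 7 leukocyte markers (median -1.20, 3 at that p, 1 called by DESeq2). It also called 0 of 6 endothelial markers and 0 of 2 hepatocyte markers, with 1 of each at that p, and 0 of 4 adipocyte, 0 of 3 Schwann and 0 of 1 kidney markers, with 0 of each at that p, and DESeq2 called 0 in all 5 of these lists. The Mann-Whitney U-test called 0 in all 7 lists.

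Against CYP17A1 and PNMT, the 10 genes were correlated within each group and never across groups, which gave 60 relations. Values are Pearson's r of log2 CPM with a two-sided permutation p, adjusted over the 60, and r again without the 2 samples farthest from the median of the marker. In NAMs 3 of the 10 had an unadjusted p below 0.05 with CYP17A1, where 25.3% of 14765 genes did. NR3C1 fell with CYP17A1 (r = -0.897, permutation p = 0.000390, adjusted p = 0.0150, rho = -0.976 with p = 3.0e-05), also without 2 NAMs (r = -0.889, p = 0.00327). Adjusted over all genes instead, its p was 0.0591. NR3C2 (r = -0.794, p = 0.00586, adjusted 0.117, rho = -0.794 with p = 0.00880) was weaker without the 2 farthest NAMs (r = -0.459, p = 0.251). TSC22D3 went the other way (r = 0.652, p = 0.0398, adjusted 0.358, rho = 0.818 with p = 0.00606, and r = 0.742 without 2, p = 0.0349). NAM replicates 8 and 6, the highest in CYP17A1, were the lowest in NR3C1.

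With PNMT, 3 of 10 had an unadjusted p below 0.05 in NAMs, where 24.2% of all genes did. HSD11B1 fell with PNMT (r = -0.886, permutation p = 0.000500, adjusted p = 0.0150, rho = -0.842 with p = 0.00359, and r = -0.735 without 2, p = 0.0390), and adjusted over all genes its p was 0.0595. ZBTB16 (r = 0.7103, p = 0.0183, adjusted 0.220, rho = 0.648 with p = 0.0492) had r = 0.570 without 2 NAMs (p = 0.142). NR3C1 had r = 0.643 (p = 0.0418, adjusted 0.358, rho = 0.794 with p = 0.00883, and r = 0.743 without 2, p = 0.0351). Both adjusted values of 0.0150 came from TMM scaling, and with library size alone 0 of the 60 relations passed the adjustment.

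In group 1, 0 of 10 had an unadjusted exact permutation p below 0.05 with CYP17A1, where 8.00% of 14750 genes did, and 1 of 10 with PNMT, where 6.60% did. That was TSC22D3 (n = 7, r = 0.844, exact p = 0.0139, adjusted p = 0.208, rho = 0.857 with exact p = 0.0238), which had r = 0.914 without 2 tumors (exact p = 0.05). In group 2, 0 of 10 had an unadjusted permutation p below 0.05 with CYP17A1, where 5.49% of 14765 genes did, and 0 of 10 with PNMT, where 5.68% did. The r for NR3C1 with PNMT was 0.254 in group 2 (permutation p = 0.418, adjusted 0.876, rho = 0.301 with p = 0.341, r = 0.172 without 2, p = 0.632). By Spearman's rho the counts at an unadjusted p below 0.05 were 1 of 20 in group 1 and 0 of 20 in group 2. Without the 2 farthest samples other relations came below an unadjusted p of 0.05, all with CYP17A1. These were HSD11B1 in NAMs (r from 0.490 to 0.814, exact permutation p = 0.0137), FKBP5 in NAMs (r from 0.142 to -0.721, exact p = 0.0453) and PER1 in group 1 (r from -0.154 to 0.940 over 5 tumors, exact p = 0.00833), and none passed the adjustment (0.250 to 0.362). The marker alone was screened for separate clusters, so NR3C1 in group 1, whose levels do fall into such clusters, is among these relations. Its r there was not below an unadjusted p of 0.05 with either marker and is not read as a relation. With 7 tumors only strong relations can pass, so weaker ones were not detectable.

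**Figure D3:**
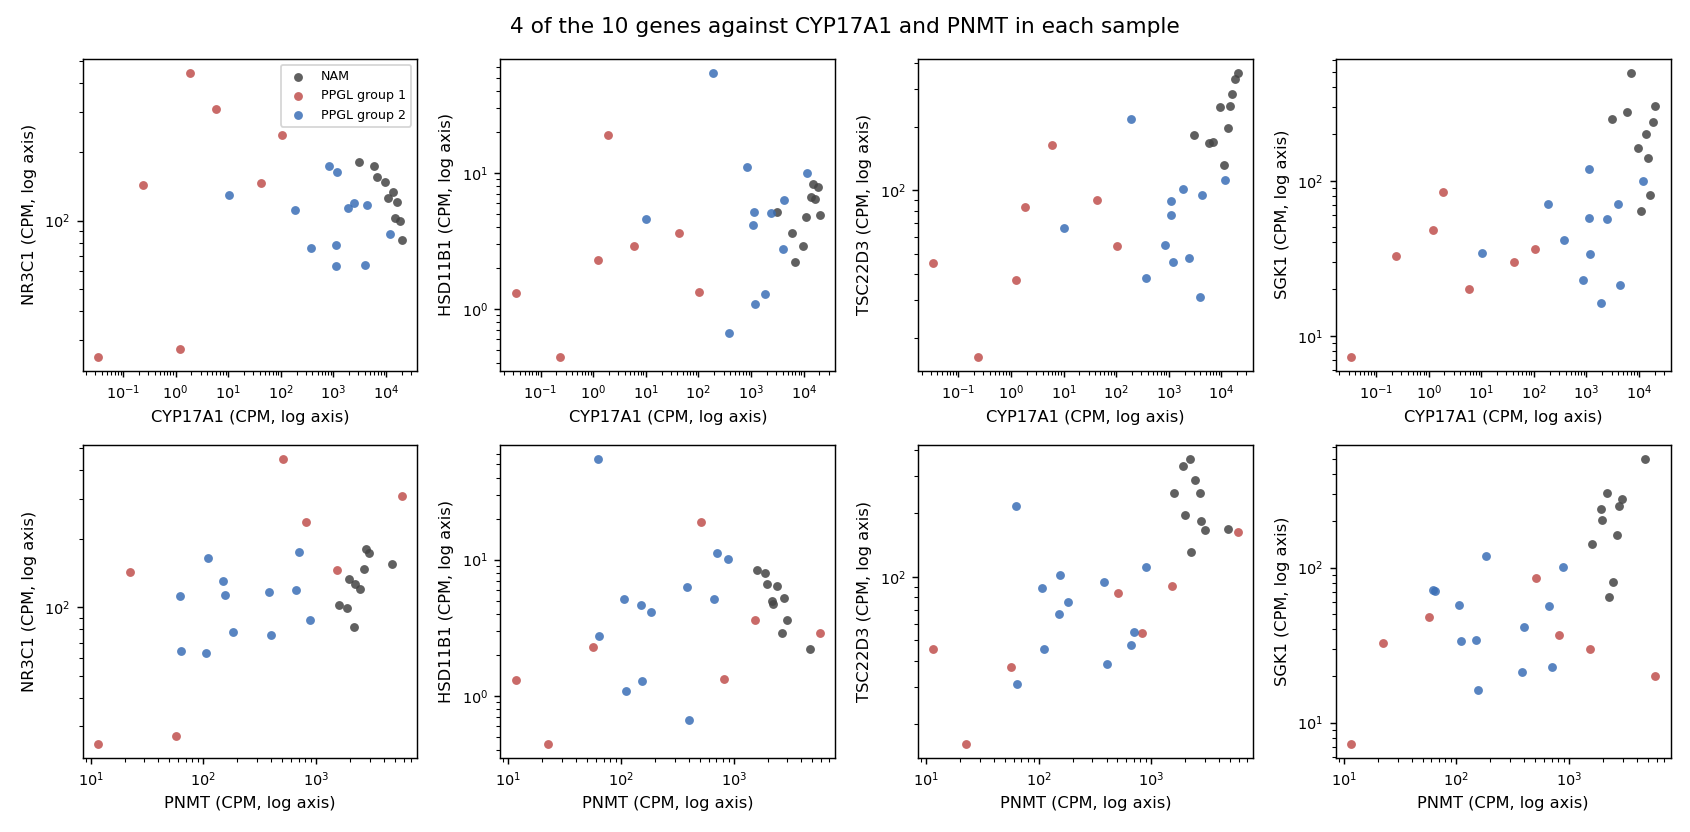
TMM-normalized CPM of NR3C1, HSD11B1, TSC22D3 and SGK1 against that of CYP17A1 and PNMT (log axes), with 1 point per sample and a color per group. Within the NAMs NR3C1 falls as CYP17A1 rises (r = -0.897), while in the tumors CYP17A1 spreads from 0.0336 to 11730.5 CPM.

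Among themselves, the 10 genes gave 126 pairs within groups, since the 9 pairs of NR3C1 in group 1 were not computed because its levels there fall into separate clusters. By permutation 23 of 126 had an unadjusted p below 0.05 and 0 an adjusted p below 0.05, against 25 and 1 by Spearman's rho. Set against every gene that passed the filter, the same genes in the same groups had an unadjusted permutation p below 0.05 in 10.0% of 428050 relations. By group 8 of 45 pairs had it in NAMs, beside 13.8%, 8 of 36 in group 1 (exact permutation), beside 6.59%, and 7 of 45 in group 2, beside 9.36%. Pairs share genes and samples, so these counts are a description. FKBP5 and ZBTB16 had an unadjusted p below 0.05 in each group, with r = 0.8004 in NAMs (permutation p = 0.00232, adjusted 0.0974, rho = 0.685 with p = 0.0347, r = 0.729 without 2, p = 0.0398), r = 0.870 in group 1 (exact p = 0.0135, adjusted 0.170, rho = 0.786 with p = 0.0480, r = 0.847 without 2, p = 0.1) and r = 0.738 in group 2 (p = 0.00892, adjusted 0.145, rho = 0.706 with p = 0.0130, r = 0.579 without 2, p = 0.0821). PER1 and SGK1 had r = 0.776 in NAMs (permutation p = 0.00858, rho = 0.745 with p = 0.0173, r = 0.692 without 2, p = 0.0557) and r = 0.722 in group 2 (p = 0.00930, rho = 0.748 with p = 0.00673, r = 0.7104 without 2, p = 0.0223), with adjusted p = 0.145 in both. In group 1 this pair had r = 0.410 (exact permutation p = 0.377). In group 2 DUSP1 and SGK1 had r = 0.813 (permutation p = 0.00158, adjusted 0.0974, r = 0.793 without 2, p = 0.00657) and rho = 0.888 (p = 0.000260, adjusted 0.0328), the pair that passed by rho. DUSP1 and SGK1 had r = 0.417 in NAMs (permutation p = 0.230) and 0.196 in group 1 (exact permutation p = 0.687). NR3C1 and NR3C2 had r = 0.869 in NAMs (permutation p = 0.00135, adjusted 0.0974, rho = 0.855 with p = 0.00281, r = 0.725 without 2, p = 0.0430) and 0.302 in group 2 (p = 0.338, adjusted 0.676, rho = 0.371 with p = 0.237, r = 0.118 without 2, p = 0.747).

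Over the 19 PPGLs, with each group's mean subtracted, the 3 named genes most like each of the 10 were found by Pearson's r, given here as a description. For the receptors they were HACD2 (0.893), DRGX (0.882) and GPBP1 (0.874) for NR3C1, and TTC39B (0.943), EVA1C (0.937) and ADM (0.904) for NR3C2. The levels of NR3C1 in group 1 fall into separate clusters, which may carry its values here, and this was not tested. For HSD11B1 they were MYLK (0.794), CYB5A (0.788) and CYP2R1 (0.784), and for FKBP5 they were SLC7A2 (0.816), ZBTB16 (0.802) and CCDC88A (0.767). TSC22D3 had TCN2 (0.876), PAPSS2 (0.817) and RGS6 (0.817), PER1 had FOSB (0.772), GJD2 (0.759) and APOLD1 (0.749), and DUSP1 had NPAS4 (0.880), CCN1 (0.878) and HAVCR1 (0.868). ZBTB16 had TMCC3 (0.933), GJD2 (0.817) and VAMP3 (0.806), KLF9 had MAB21L3 (0.768), AFF2 (0.768) and ARAP1 (0.767), and SGK1 had NR4A2 (0.791), JUND (0.780) and NR4A1 (0.763). Single tumors may also carry values of genes other than NR3C1, and this was not tested either. Group 1 replicate 7 was the lowest sample in NR3C2 (2.35 CPM) and KLF9 (0.537 CPM). Group 2 replicate 11 was the highest PPGL in HSD11B1 (54.3 CPM), TSC22D3 (217 CPM) and DUSP1 (592 CPM).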

How the data were processed

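Whole-tissue RNA of 29 canine samples was sequenced by the authors, 10 of NAM, 7 of PPGL group 1 and 12 of PPGL group 2, and the authors deposited a table of raw counts per Ensembl gene, which they made by aligning reads to CanFam3.1 and counting them on genes, according to the submitters' notes. Those notes name FastQC, STAR, Picard and HTSeq without versions, the authors' methods give STAR as 2.4.2a, and the table has the column layout of featureCounts, and which program counted was not settled. Libraries came from a stranded kit (TruSeq Stranded mRNA), but the strand setting used in counting and the handling of multi-mapped reads are not stated. Of 30951 genes, 24051 had a count and 18239 a name. No column equalled another. Groups were taken from the labels.

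Analyses ran in R 4.3.3 with edgeR 4.0.16, limma 3.58.1 and DESeq2 1.42.0, and in Python 3.11.15 with numpy 2.4.6, scipy 1.17.1 and matplotlib 3.10.9. Genes passed filterByExpr (minimum count 10, minimum total 15), libraries were scaled by TMM, and edgeR's two-sided QL F-test (prior count 0.125) compared PPGLs with NAMs, each PPGL group with NAMs in a fit of all 3 groups, and the PPGL groups with each other in a fit of the 19 PPGLs. P-values were adjusted by Benjamini and Hochberg over all genes tested, with thresholds of 0.05 against NAM and 0.1 between PPGL groups. Standard errors and 95% intervals follow from the QL statistic.

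Correlations used log2 CPM (prior count 2) within each group, with exact permutation for 7 samples and 100000 permutations for 10 and 12. The smallest attainable p is set by the number of permutations. Members and lists were chosen with earlier results of these data known. The genes named from a list are drawn from its most abundant gene and up to 3 called genes with the largest change in each direction, though not all of these are named, and LCN2, NCOA1 and SYP, named outside that rule, were chosen after their values were seen, as were genes named for their levels. The lists are receptor chaperones and coregulators, steroid access and metabolism, other glucocorticoid-induced genes, mineralocorticoid-regulated sodium transport, circadian clock, and markers of adrenal cortex, chromaffin, immediate early, leukocyte, endothelial, fibroblast and mural, adipocyte, hepatocyte, kidney tubule, Schwann and sustentacular, and erythroid cells or states. Not found by name were HSP90AB1, PTGES3, AKR1D1, SERPINA6, CDKN1C, CEBPD, MT1, BHLHE41, CYP11B2, CHGA, CD14, ADIPOQ and ALB.

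Alternatives were DESeq2 size factors, library size alone, DESeq2's Wald test, the Mann-Whitney U-test (exact with the 19 PPGLs where values had no ties), no filter or a filter of 1 CPM, other groups in the fit, a replicate block, the mean log2 level of cortical or of immediate early genes held as a covariate, a prior count of 0.5, rank correlation, and each library left out in turn. Leaving out the 5 PPGLs that stand apart was added after the data were seen, as was leaving out each library in the comparisons of each PPGL group with NAMs. Methods were tested on simulated data.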

Additional observations from a re-analysis of the deposited data

Results flagged for a closer look

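In 5 of the 24 groups looked at (12 genes in NAMs and in PPGL group 1), 1 sample lay far from the others of its group on the CPM scale. All 5 were the highest of their group. The limits used would set apart about 1 in 20 groups by chance only if CPM values followed a normal distribution. CPM values can be skewed to the high end, and the comparison was not repeated on the log2 scale. So 5 of 24 is not read as more than chance would give. PPGL group 2, with 12 tumors, was too large for this comparison. HSD11B1 was 18.9 CPM in group 1 replicate 1, where the next sample had 3.59 CPM, and CYP17A1 was 104 CPM in group 1 replicate 6, where the next had 42.6 CPM. PNMT was 5830 CPM in group 1 replicate 2, with the next at 1530 CPM. NAM replicate 3 stood apart in both FKBP5, at 499 CPM beside 276 CPM in the next NAM, and PNMT, at 4770 CPM beside 2980 CPM.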

How the results depend on the processing

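Across the alternatives that kept all libraries or left out the 5 PPGLs that stand apart, 375 log2 FC of the 10 genes kept their direction and their side of the threshold, 23 changed sign, 12 lost their call and 10 gained one with their sign kept. Of those that changed sign, DUSP1 in group 2 against NAMs was also newly called, as given below. Of the counts of genes or relations, 79 stayed within 1.5-fold and 12 did not. Where a value changed, the cause was not tested.

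Leaving out the 5 PPGLs that stand apart, chosen after the data were seen, raised the number of genes called higher from 0 to 1 in group 1 against NAMs and to 1 in group 1 against group 2, NR3C1 in both. Over all genes these fits called 4810 of 15553 in group 1 against NAMs and 384 of 14988 in group 1 against group 2, in either direction. The omission turned the sign of FKBP5 (0.0565) and HSD11B1 (0.34) in group 1 against NAMs, of HSD11B1 in group 2 against NAMs (-0.15), and of HSD11B1 (0.50), KLF9 (0.13) and TSC22D3 (0.50) in group 1 against group 2.

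With the cortical level held in the fit, 0 of the 10 genes were called higher in PPGLs or in group 2 against NAMs, 0 lower in group 1 and 1 lower in group 2, by edgeR. Over all genes that covariate left 2224 of 14766 called in PPGLs, 15 of 15201 in group 1 and 1098 of 15201 in group 2. Of the 10, edgeR gave 6 in PPGLs, 0 in group 1 and 4 in group 2 at an unadjusted p below 0.05 in either direction, and DESeq2 without that covariate called 5, 3 and 6. DUSP1 (0.66) and NR3C1 (-0.57) turned in PPGLs, NR3C2 in group 1 against NAMs (-0.70), HSD11B1 in group 2 against NAMs (-0.0394), and SGK1 (0.10) and ZBTB16 (-0.0268) in group 1 against group 2. With the immediate early level held, HSD11B1 in PPGLs was -0.00373, DUSP1 in group 2 against NAMs was -0.71 and called (adjusted p = 0.0280, over 10 settings 0.0280 to 0.936), and KLF9 (0.34), PER1 (0.20) and SGK1 (0.41) turned in group 1 against group 2.

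With a replicate block, which treats samples of the same number as paired, 0 of the 10 genes were called higher in PPGLs by edgeR, with 7 of 10 at an unadjusted p below 0.05 in either direction, where DESeq2 without the block called 5. Over all genes, 4653 of 14766 were called in PPGLs with the block, in either direction. NR3C1 (-0.19) and HSD11B1 (-0.39) turned in PPGLs, HSD11B1 in group 2 against NAMs (-0.26) and TSC22D3 in group 1 against group 2 (0.0560). The numbers count different dogs, and correlations of samples with the same number, after group means were subtracted, were -0.0730 to 0.0392 between NAMs and group 1 (7 pairs), -0.232 to 0.251 between NAMs and group 2 (10 pairs) and -0.117 to 0.0494 between the PPGL groups (7 pairs). The cause was not tested.

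DESeq2 turned HSD11B1 in PPGLs (-0.22), and library size as the scale turned DUSP1 there (0.0699). Library size moved the median log2 FC of all genes in group 1 against NAMs from 0.13 to 0.24. Of the 60 relations with CYP17A1 and PNMT, 2 passed the adjustment with Pearson's r, 1 with Spearman's rho, 0 with library size and 0 without the 2 farthest samples, with 7, 7, 6 and 7 at an unadjusted permutation p below 0.05, though not the same relations without the 2 samples. Of the 126 pairs, 0 passed with Pearson's r, with 23 at an unadjusted p below 0.05, 1 with Spearman's rho and 1 with library size.

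When each library was left out in turn, PPGLs against NAMs had 1 gene called higher in each fit and 3 to 4 lower, group 1 against NAMs 0 to 1 higher and 3 to 4 lower, and group 2 against NAMs 1 higher and 4 to 5 lower. Group 1 against group 2 had 0 called by edgeR in each fit. The log2 FC crossed 0 for NR3C1 (-0.12 without group 1 replicate 1 to 0.13 without group 1 replicate 7), HSD11B1 (-0.20 without group 2 replicate 11 to 0.54 without NAM replicate 9) and DUSP1 (-0.25 without group 2 replicate 11 to 0.13 without NAM replicate 3) in PPGLs. It also did so for TSC22D3 in group 1 against group 2 (-0.57 without group 1 replicate 2 to 0.0374 without group 2 replicate 11) and HSD11B1 in group 2 against NAMs (-0.16 without group 2 replicate 11 to 0.86 without group 2 replicate 3). In group 1 against NAMs the gene gained as higher was NR3C2, without group 1 replicate 7 (0.77), and as lower DUSP1, without group 1 replicate 2 (-1.28).

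The smallest count of the 10 genes was 14. The SE of their log2 FC was 0.26 to 0.57 in PPGLs against NAMs and 0.35 to 0.82 between the PPGL groups. It holds counting error and the spread between samples together, and the share of each was not tested.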
